A study of Mus musculus with 24 samples.

Results

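The calcium-binding S100 proteins and annexins are followed here through ureter obstruction and its reversal in mouse kidney. The set is 10 genes chosen by name, S100a4, S100a6, S100a8, S100a9, S100a10, S100a11, Anxa1, Anxa2, Anxa3 and Anxa5, and each had a row among the 14785 genes of the deposited expression table. Kidneys came from male mice, labelled C57/BL6 and aged 8 weeks, with no genetic change named. The age label was the same in all groups and does not tell age at surgery from age at collection. There were 6 groups of 4 animals. Sham animals had surgery without obstruction, UUO2 and UUO7 animals had the ureter of one kidney ligated for 2 and 7 days, and R1W, R2W and R4W animals had 7 days of ligation followed by reimplantation of the ureter and 1, 2 or 4 weeks of recovery. The comparisons ask how far these transcripts change during obstruction and how far they return while the kidney repairs. The 4 sequenced animals of a group were selected from 10, how they were selected is not given in the sources used here, and nor is the time at which sham kidneys were taken. R4W replicate 2 is labelled 4 weeks in its title and 2 weeks in its treatment label, and was grouped by its title.

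S100 proteins are small proteins with paired EF-hand calcium sites, and annexins are proteins that bind acidic membrane lipids when calcium rises. Several of them work together: S100A10 binds annexin A2 in a complex that holds plasminogen activators and ion channels at the cell surface, S100A11 binds annexin A1, and S100A8 with S100A9 forms calprotectin, an abundant protein of neutrophils and monocytes. Annexin A1 limits inflammation through formyl peptide receptors, annexin A5 binds exposed phosphatidylserine, and S100A4 and S100A6 are linked to cell movement and growth. In kidney, annexin A2, S100A6 and S100A11 are known from injured and dedifferentiated tubule cells, and S100A4 from fibroblasts and leukocytes.

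RefSeq promoter entries, on GRCm38.p6, matched 8 of the 10 genes: S100a4, S100a6, S100a8, S100a9, S100a11, Anxa1, Anxa2 and Anxa5. Each entry covers 250 bases before and 50 bases after the start of transcription. The last 140 bases before the start are printed for 6 of them as examples. All 10 members were higher after 7 days of obstruction, so that change does not set these 6 apart. Each is written 5′ to 3′ on the strand of its gene, and capitals mark the TATA box letters TATAAA and the AP-1 letters TGANTCA, searched on both strands.
S100a4: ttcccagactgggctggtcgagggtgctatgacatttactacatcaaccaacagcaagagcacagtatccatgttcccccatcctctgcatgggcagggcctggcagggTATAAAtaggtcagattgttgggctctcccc
S100a6: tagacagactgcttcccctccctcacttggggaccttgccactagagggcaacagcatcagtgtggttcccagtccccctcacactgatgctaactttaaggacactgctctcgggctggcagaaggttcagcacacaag
S100a8: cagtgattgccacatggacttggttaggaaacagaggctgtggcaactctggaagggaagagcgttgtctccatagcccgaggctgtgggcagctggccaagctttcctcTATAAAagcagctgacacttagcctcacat
S100a11: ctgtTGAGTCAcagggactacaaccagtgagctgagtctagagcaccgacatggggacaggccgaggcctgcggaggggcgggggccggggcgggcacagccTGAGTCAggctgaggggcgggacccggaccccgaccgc
Anxa1: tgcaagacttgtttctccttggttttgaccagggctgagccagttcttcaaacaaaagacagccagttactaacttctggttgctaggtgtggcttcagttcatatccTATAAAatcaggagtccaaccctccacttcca
Anxa2: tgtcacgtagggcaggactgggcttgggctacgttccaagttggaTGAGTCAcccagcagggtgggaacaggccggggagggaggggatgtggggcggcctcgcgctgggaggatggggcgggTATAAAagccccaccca
These stretches lie at chr3:90603630-90603769, chr3:90612754-90612893, chr3:90668931-90669070 and chr3:93520356-93520495 for the S100 genes, all on the plus strand. Anxa1 is at chr19:20390672-20390811 on the minus strand and Anxa2 at chr9:69453543-69453682 on the plus strand. TATAAA stood 31 to 26 bases before the start in S100a4, 30 to 25 in S100a8, 32 to 27 in Anxa1 and 17 to 12 in Anxa2. In S100a9 it began at the annotated start itself, so 5 of the 8 windows of 300 bases held it, against 13.6% of the 32851 windows in the table. AP-1 letters stood at 2 places in S100a11 and 1 place in Anxa2, against 7.81% of all windows. C/EBP letters (TTGCNNAA) were in S100a9 and Anxa1 (10.8% of all windows) and TEAD letters (GGAATG) in Anxa1 (14.7%). NF-kB letters (GGGNNNNNCC) were in 6 of the 8 windows and in 50.8% of all. Some NF-kB matches overlapped one another in S100a4, S100a11 and Anxa5, and none overlapped the capitals of a printed stretch. These matches are descriptions of the letters only. S100a6, the member with the largest log2 fold change in UUO7, had a single NF-kB match and none to the other motifs.

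The 4 animals of a group are the replicates, and values are FPKM, fragments scaled to transcript length and library size. Implied depth, read from the steps between low values, was 24652000 to 35317000 fragments in 20 libraries. The 4 UUO2 libraries showed no such steps and had mt-Rnr1, a mitochondrial ribosomal RNA, at 2343 to 2832 FPKM against 342 to 709 in the other 20, so a difference in how these libraries were made and 2 days of obstruction cannot be told apart. Sham replicate 2 stood apart from the other sham kidneys: its summed urothelium markers, 7 genes, were 100.4 FPKM against 2 to 5.83, and its summed adipose markers, 5 genes with a row of 6, were 291 FPKM against 40.4 to 48.5. Values without it are given where it changes a call or moves a value most. Kidney markers were present, with 8 proximal tubule genes summing to 3769 to 4446 FPKM in sham, and the urothelial gene Upk3a was listed at 0 in 1 library. The median gene had a log2 fold change of 0.42 between UUO7 and sham. After rescaling, in which each library was divided by the median of its ratios to each gene's geometric mean over libraries, the calls in UUO7 against sham moved from 8880 higher and 2632 lower to 5393 higher and 5396 lower. Rescaled values are therefore given wherever they change a count of members called.

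Together the 10 transcripts took 0.0867% ± 0.0228 (SD, n = 4) of summed FPKM in sham kidneys, 0.240% ± 0.0543 in UUO2, 0.469% ± 0.0250 in UUO7 and 0.251% ± 0.0312 in R4W. In UUO2, 9 of the 10 passed the test as higher than sham, against 32.3% of all genes, and 8 were at least 2-fold higher, against 5.74%. In UUO7 all 10 were higher, against 60.1% of genes (36.5% on rescaled values), and all 10 were at least 2-fold higher, against 21.8%. In each of the recovery groups all 10 remained above sham, against 59.4% of genes (R1W), 56.1% (R2W) and 54.8% (R4W). At least 2-fold higher in recovery were 9 members in each group, against 17.7% of all genes (R1W), 15.2% (R2W) and 14.2% (R4W). On rescaled values 7 were at least 2-fold higher in R4W, against 9.91% of genes, and S100a11 (0.80) and Anxa5 (0.87) were below 2-fold. The median log2 fold change of the members was 1.35 at 2 days, 2.56 at 7 days and 2.25, 2.44 and 1.89 after 1, 2 and 4 weeks of recovery, where the median of all genes was 0.09, 0.42, 0.37, 0.32 and 0.30. On deposited values all 10 had every UUO7, R1W, R2W and R4W library above every sham library. So had 56.9%, 53.4%, 50.6% and 52.9% of all genes in those groups. In UUO2 this held for 7 members, all but S100a4, S100a6 and Anxa1, and for 28.3% of all genes. On rescaled values S100a10 overlapped sham in R4W. Without sham replicate 2, the count of members called was again 9 in UUO2, with Anxa1 called and S100a9 not, and 10 in each other group. These 5 comparisons share the sham animals. In bulk kidney, more cells of a type and more RNA per cell cannot be told apart.

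**Figure D1:**
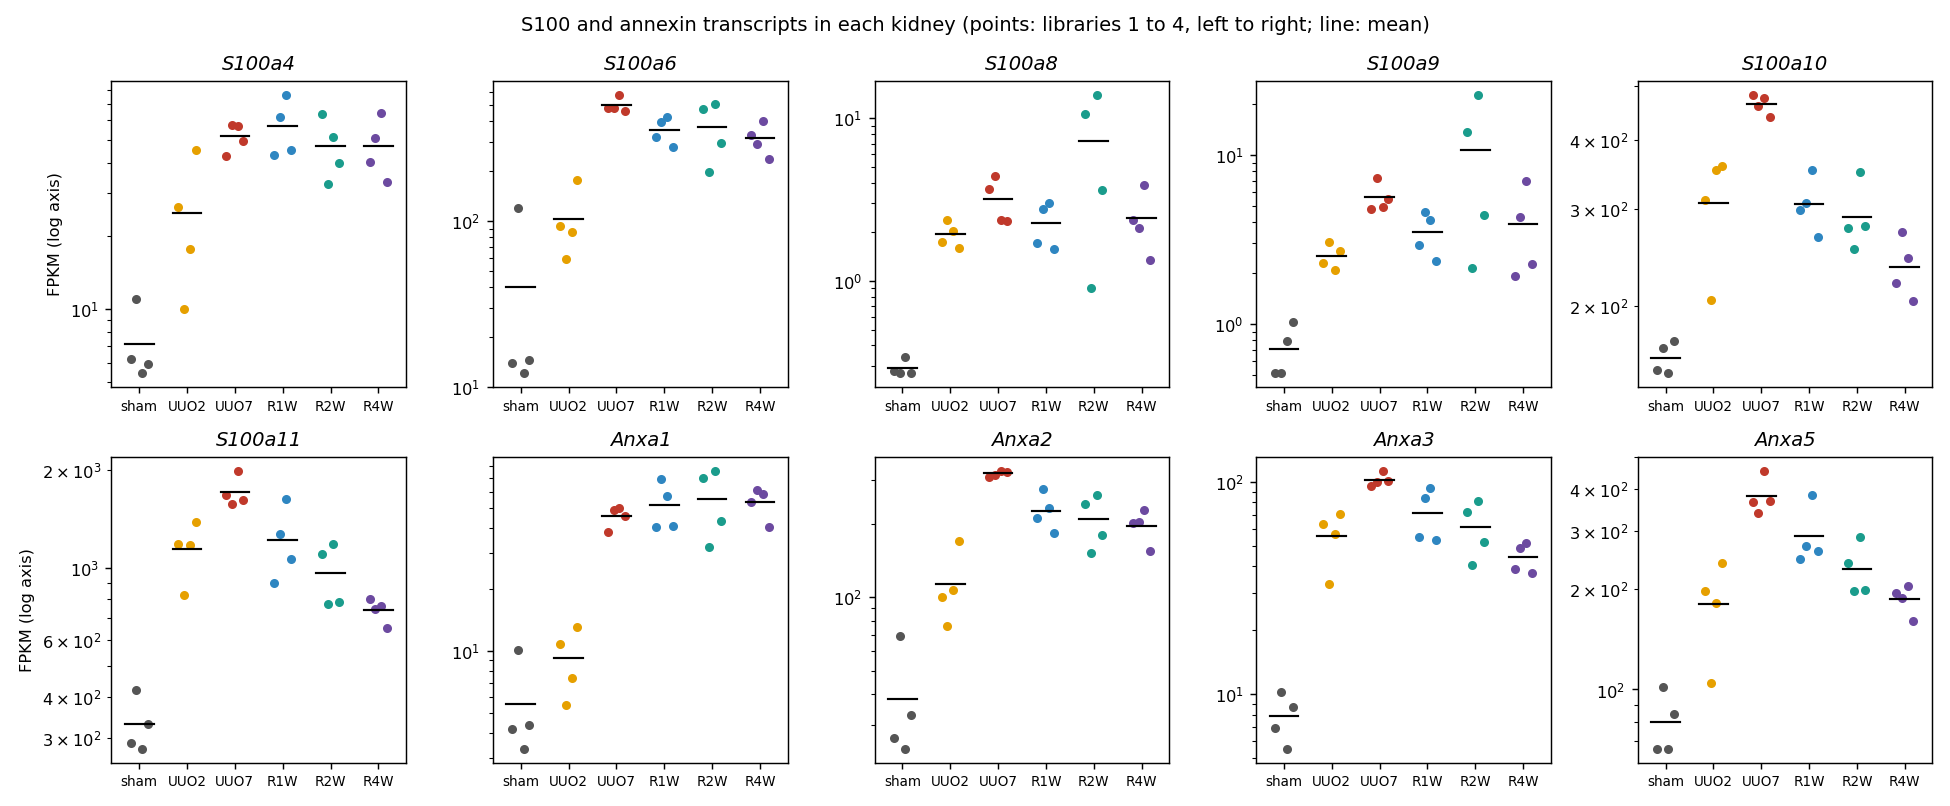
FPKM of the 10 genes in each library on log axes, 4 points and a mean line per group. The UUO7, R1W, R2W and R4W points lie above all sham points in every panel, sham replicate 2 is the high sham point for S100a6 (119 FPKM), and S100a8 and S100a9 spread most in R2W (0.90 to 13.9 FPKM and 2.14 to 22.7 FPKM).

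The S100A10 and annexin A2 partners were abundant at baseline and rose by different amounts. S100a10 was at 153, 168, 151 and 173 FPKM in the 4 sham kidneys, at 311, 205, 353 and 359 in UUO2 and at 483, 461, 476 and 441 in UUO7. The sham and obstructed kidneys did not overlap, and on deposited values UUO7 lay above UUO2 in every library. On rescaled values UUO7 and UUO2 overlapped, with a log2 difference of 0.28 (limma adjusted p = 0.0694). The log2 fold change of S100a10 in UUO7 against sham was 1.53 (SE 0.14, limma adjusted p = 4.47e-09), the smallest of the set. After reversal S100a10 was at 298, 307, 353 and 266 FPKM in R1W, 289.8 ± 41.2 (SD, n = 4) in R2W and 219.7, 272, 245 and 204 in R4W. It was the only member that passed the test as lower in R1W than in UUO7 (-0.61, limma adjusted p = 0.00746), against 8.04% of genes. R4W remained above sham by 0.54 on the log2 scale (limma adjusted p = 0.00216). On rescaled values this was 0.16 with limma adjusted p = 0.301, so 9 of 10 members, against 28.9% of genes, were then higher in R4W than in sham.

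Anxa2, the annexin partner, was at 26.6, 69.3, 23.9 and 33.0 FPKM in sham, 100.5, 76.4, 107 and 169.6 in UUO2 and 309.6, 317, 329 and 326 in UUO7. The UUO7 kidneys lay within a narrow band above every other group, and sham replicate 2 was the high sham kidney. The log2 fold change was 1.62 in UUO2 (limma adjusted p = 3.58e-05) and 3.17 in UUO7 (SE 0.26, limma adjusted p = 1.20e-09), and without sham replicate 2 it was 1.94 and 3.49. In R4W Anxa2 was at 202, 203, 227 and 154 FPKM, 2.45 above sham on the log2 scale (2.77 without sham replicate 2) and lower than UUO7 (-0.72, limma adjusted p = 0.0281). The last call was lost without UUO7 replicate 3 or 4 or without R4W replicate 4 (limma adjusted p = 0.0575, 0.0516 and 0.0896).

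FPKM is scaled by transcript length, so the ratio of the partners can be followed. S100a10 stood at 5.75, 2.42, 6.30 and 5.24 FPKM per FPKM of Anxa2 in the sham kidneys, where replicate 2 was again the one apart. The ratio was 2.80 ± 0.520 (SD, n = 4) in UUO2, 1.45 ± 0.0850 in UUO7, then 1.37 ± 0.184 (R1W), 1.43 ± 0.236 (R2W) and 1.21 ± 0.144 (R4W). Every sham ratio was above every UUO7 ratio, and every UUO7 ratio was above every R4W ratio. The log2 ratio differed by -1.67 between UUO7 and sham, by -1.95 between R4W and sham and by -0.27 between R4W and UUO7. Without sham replicate 2 the first 2 were -1.99 and -2.26. With all kidneys included, each of the 3 differences had p = 0.0286 in a two-sided exact permutation test of 4 against 4 kidneys, the smallest that test allows, and 0.0571 after Benjamini-Hochberg adjustment over the 6 ratio tests run. The same test of S100a8 to S100a9 gave ratios of 0.443 ± 0.130 in sham and 0.568 ± 0.150 in UUO7, which overlapped (exact permutation p = 0.314, 0.377 after adjustment). All sham ratios of S100a8 to S100a9 were below all those of UUO2 (0.779 ± 0.158) and R1W (0.649 ± 0.0691), which were not among the tests run. Both ratios were chosen with the members' values known.

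**Figure D2:**
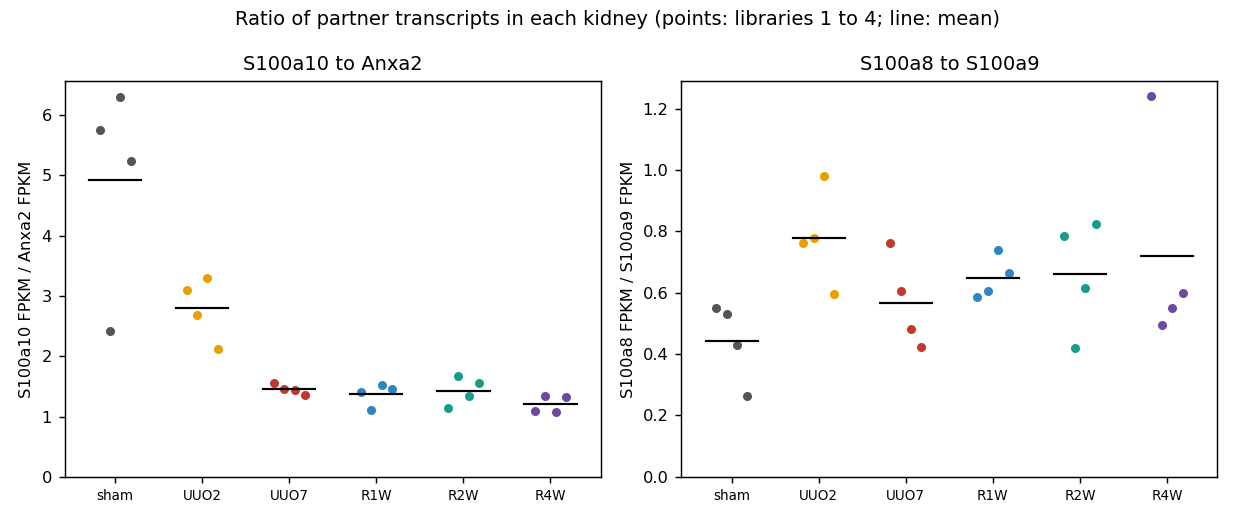
Ratio of S100a10 to Anxa2 FPKM (left) and of S100a8 to S100a9 FPKM (right) in each library, with group means as lines. The left panel goes from 2.42 to 6.30 in sham to 1.08 to 1.34 in R4W, with no overlap between sham and UUO7, while in the right panel sham (0.265 to 0.549) overlaps UUO7 but lies below UUO2 (0.595 to 0.981) and R1W (0.585 to 0.739).

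S100a11, which binds annexin A1, was the most abundant member per length in every group. Sham kidneys had 289, 423, 278 and 331 FPKM, UUO2 kidneys 1181, 825, 1172 and 1388 and UUO7 kidneys 1674, 1575, 1992 and 1619. On deposited values the 3 groups were separate from one another, with sham below UUO2 and UUO2 below UUO7. On rescaled values UUO7 and UUO2 overlapped, with a log2 difference of 0.25 (limma adjusted p = 0.187). The log2 fold change was already 1.78 in UUO2 (SE 0.18, limma adjusted p = 1.72e-07) and reached 2.39 in UUO7 (limma adjusted p = 5.37e-10). R4W kidneys had 801, 746, 764 and 653 FPKM, all below UUO2 and above sham. R4W was lower than UUO7 (-1.21 on the log2 scale, limma adjusted p = 4.04e-05), and S100a11 and Anxa3 (-1.20) had the largest decreases of the set. S100a11 was also lower in R4W than in R1W (-0.68, limma adjusted p = 0.0166). The call against R1W was lost without R1W replicate 3, which had 1627 FPKM (limma adjusted p = 0.0880), and without R4W replicate 4 (limma adjusted p = 0.0510).

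Anxa1 was not called at 2 days of obstruction, rose by 7 days, and had a mean in each recovery group above that of UUO7. It was at 4.18, 10.2, 3.33 and 4.35 FPKM in sham and 10.9, 5.46, 7.42 and 13.2 in UUO2, which overlapped. It was the one member that did not pass the test at 2 days (0.69, limma adjusted p = 0.0572). With a pseudocount of 0.1 it did (0.80, limma adjusted p = 0.0416). Without sham replicate 2, the kidney at 10.2 FPKM, the change was 0.99 with limma adjusted p = 0.00578, and without UUO2 replicate 2 it was 0.89 with limma adjusted p = 0.0182. UUO7 kidneys had 38.3, 48.7, 49.9 and 45.8 FPKM, all above UUO2, with a log2 fold change against sham of 2.94 (SE 0.29, limma adjusted p = 1.55e-08). R1W kidneys had 40.2, 69.5, 57.1 and 40.6 FPKM, R2W kidneys 70.1, 32.1, 76.0 and 43.4 and R4W kidneys 53.4, 60.9, 58.6 and 40.4. These overlapped UUO7 throughout, and the log2 difference between R4W and UUO7 was 0.21 (SE 0.29, limma adjusted p = 0.580).

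Anxa3, an annexin of epithelial and myeloid cells, had the second largest log2 fold change of the set in UUO7 and the largest in UUO2. Sham kidneys had 6.92, 10.2, 5.51 and 8.73 FPKM, UUO2 kidneys 63.0, 33.1, 56.5 and 70.3, UUO7 kidneys 95.6, 100.2, 113 and 101 and R4W kidneys 39.0, 49.0, 51.6 and 37.2. Sham lay below all other groups, and UUO7 above UUO2 and R4W without overlap. The log2 fold change was 2.66 in UUO2, 3.58 in UUO7 (SE 0.24, limma adjusted p = 8.84e-11) and 2.37 in R4W. R4W was lower than UUO7 (-1.20, limma adjusted p = 0.000389).

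Anxa5, the phosphatidylserine-binding annexin, was at 66.2, 102, 66.4 and 84.2 FPKM in sham, 198, 104, 182 and 240.1 in UUO2, 367, 339, 455 and 368 in UUO7 and 195, 188, 205 and 160.3 in R4W. Each obstructed or recovering kidney was above each sham kidney, by the least in UUO2 replicate 2 (104 against 102 FPKM). The log2 fold change in UUO7 was 2.26 (SE 0.20, limma adjusted p = 3.44e-09). R4W was lower than UUO7 (-1.02, limma adjusted p = 0.000401) and lower than R1W (-0.61, limma adjusted p = 0.0404). The last call did not hold on rescaled values (-0.54, limma adjusted p = 0.0535). It was also lost when any 1 of these 8 kidneys except R1W replicate 1 was left out, the furthest without R1W replicate 3, at 384 FPKM (-0.47, limma adjusted p = 0.176).

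S100a6, known as calcyclin, had the largest log2 fold change of the set in UUO7. Sham kidneys had 13.8, 119, 12.1 and 14.6 FPKM, UUO2 kidneys 92.9, 58.9, 85.3 and 177 and UUO7 kidneys 482, 482, 576 and 460.2. Sham replicate 2 was higher than 3 of the 4 UUO2 kidneys, and UUO7 lay above all of both groups. The log2 fold change in UUO7 was 4.35 (SE 0.49, limma adjusted p = 8.46e-08), rank 38 from the top of all genes. Without sham replicate 2 it was 5.11, and in UUO2 it went from 1.97 to 2.74 on the log2 scale. Anxa3 had the larger UUO2 change (2.66, or 2.78 without sham replicate 2). It also had the larger ratio of UUO7 to sham group means, 13.1 against 12.5 for S100a6. R1W kidneys had 323, 396, 423 and 278 FPKM of S100a6, R2W kidneys 476, 197, 510 and 295 and R4W kidneys 329, 293, 402 and 238. All R4W kidneys were below all UUO7 kidneys, yet the difference did not pass the test (-0.68, SE 0.49, limma adjusted p = 0.261), in a model whose spread for this gene includes sham replicate 2. In the fit on those 2 groups alone it did (-0.68, limma adjusted p = 0.00562).

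S100a4 was at 6.24, 10.96, 5.43 and 5.91 FPKM in sham, 26.4, 9.97, 17.7 and 45.4 in UUO2 and 42.8, 57.6, 56.9 and 49.5 in UUO7. UUO2 kidneys varied widely, replicate 2 lay below the highest sham kidney, and UUO7 was above every sham kidney. The log2 fold change was 1.52 in UUO2 (limma adjusted p = 0.000601) and 2.73 in UUO7 (SE 0.32, limma adjusted p = 1.60e-07). Recovery kidneys had 56.6 ± 15.6, 47.0 ± 13.5 and 47.2 ± 13.5 FPKM (SD, n = 4) in R1W, R2W and R4W. All 3 groups overlapped UUO7, and R4W differed from UUO7 by -0.16 (SE 0.32, limma adjusted p = 0.703).

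The calprotectin genes were the least abundant. S100a8 was at 0.28, 0.27, 0.34 and 0.27 FPKM in sham, 1.74, 2.38, 2.04 and 1.60 in UUO2 and 3.66, 4.43, 2.38 and 2.32 in UUO7, with no overlap between sham and the others. At the length of the first of its 2 annotated transcripts, 486 bases, these sham values correspond to 3, 3, 4 and 3 fragments, against 36, 40, 24 and 23 in UUO7. Depth alone gives a ratio of UUO7 to sham of 10.8, with an exact 95% interval from 6.08 to 20.8 that covers counting error only. S100a9 was at 0.51, 0.51, 0.79 and 1.02 FPKM in sham, 6 to 12 implied fragments at the 512 bases of the first of its 2 annotated transcripts, at 2.53 ± 0.436 (SD, n = 4) in UUO2 and at 4.81, 7.31, 4.95 and 5.48 in UUO7, a ratio to sham of 7.84 (exact 95% interval 5.46 to 11.6). On the log2(FPKM + 1) scale, which compresses such low values, the changes in UUO7 were 1.67 for S100a8 (SE 0.41, limma adjusted p = 0.000881) and 1.95 for S100a9 (SE 0.42, limma adjusted p = 0.000267). With a pseudocount of 0.1 they were 3.03 and 2.86. The S100a9 call in UUO2 (1.05, limma adjusted p = 0.0447) was lost when any 1 of the 8 kidneys compared was left out (limma adjusted p from 0.0535 without sham replicate 4 to 0.0909 without sham replicate 1). With a pseudocount of 10, which compresses further, neither gene was called against sham in UUO2, R1W or R4W.

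Both calprotectin genes had their highest group mean in R2W, were uneven there and overlapped UUO7. In the authors' deposited table neither difference of R2W from UUO7 passed (1.17 and 0.92, adjusted p = 0.127 and 0.189). S100a8 was at 10.7, 0.90, 13.9 and 3.64 FPKM in the R2W kidneys, 87, 11, 134 and 39 implied fragments, and S100a9 at 13.6, 2.14, 22.7 and 4.41, 120, 28, 234 and 50 fragments. Replicates 1 and 3 were high and replicates 2 and 4 low for both. Csf3r, the G-CSF receptor of neutrophils and the only 1 of 12 neutrophil markers with a row, was at 10.5, 3.07, 9.05 and 3.11 FPKM in the same kidneys. Csf3r was at 0.41, 0.21, 0.24 and 0.24 FPKM in sham, 0.56, 0.46, 0.52 and 0.61 in UUO2 and 3.86, 5.53, 3.59 and 4.29 in UUO7. Every UUO2 kidney was above every sham kidney in Csf3r, with a log2 fold change of 0.27 (limma adjusted p = 0.421), or 0.79 with a pseudocount of 0.1 (limma adjusted p = 0.0531). Its part in the S100a8 and S100a9 values was not tested. In R4W S100a8 was back at 2.43 ± 1.05 FPKM (SD, n = 4) and S100a9 at 3.88 ± 2.36, and neither difference from UUO7 passed the test (-0.31 and -0.55, limma adjusted p = 0.554 and 0.291).

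**Figure D3:**
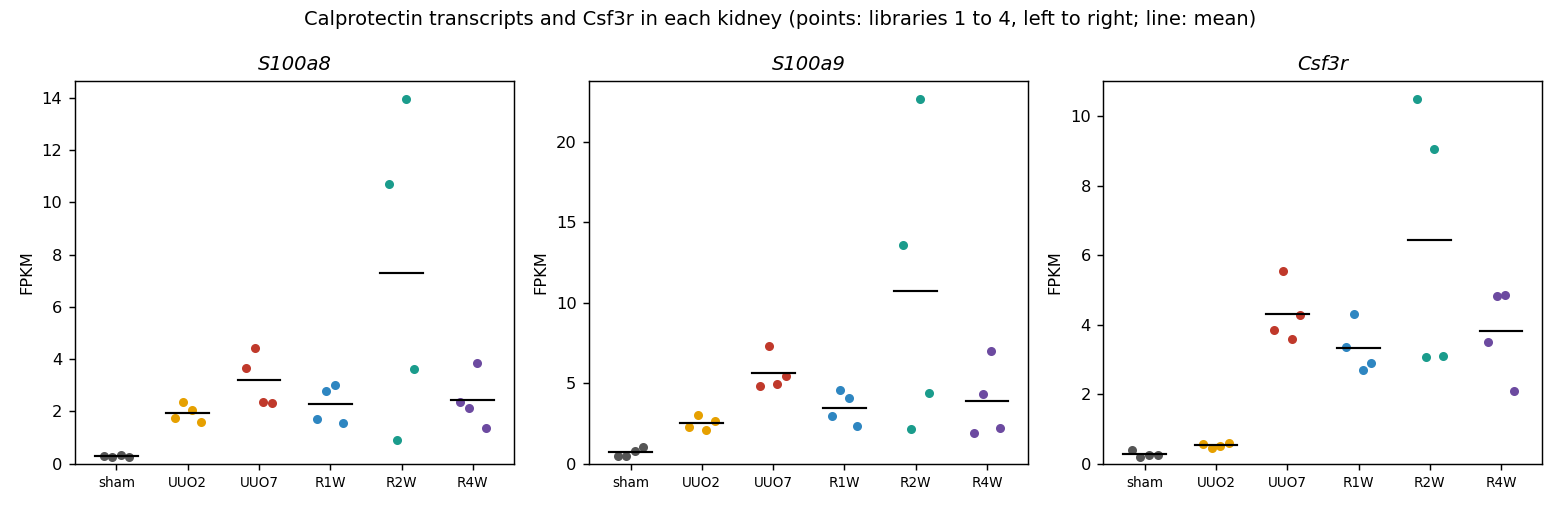
FPKM of S100a8, S100a9 and Csf3r in each library on linear axes from 0, with group means as lines. R2W replicates 1 and 3 (10.7 and 13.9 FPKM of S100a8) stand above the other 2 R2W kidneys in all 3 panels, and in UUO2 all 3 genes are above every sham kidney, Csf3r at 0.46 to 0.61 FPKM against 0.21 to 0.41.

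R2W kidneys differed among themselves in the other members too. Replicates 1 and 3 were both above replicates 2 and 4 for 9 of the 10 genes, all but S100a10, and replicate 2 was the lowest for all 10. The share of all genes in this order was not counted. The rescaling divisors of the 4 libraries ran the same way, 1.13, 0.990, 1.11 and 1.04. After division by them replicate 2 was no longer the lowest for S100a10, S100a11 and Anxa5. The summed macrophage and monocyte markers, 11 genes, were 2352, 963, 1918 and 1228 FPKM in those 4 kidneys, and the 8 proximal tubule markers 1412, 2574, 1316 and 2156. In UUO2, replicate 2 was the lowest for 8 members. It had the lowest divisor of its group (0.883) and the highest proximal tubule sum (2519 against 1533 to 1851 FPKM). In R4W, replicate 4 was the lowest for 9 members. It had the lowest divisor of its group (1.03) and the highest proximal tubule sum, 2651 FPKM. The part of tissue makeup in the members' values was not tested.

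**Figure D4:**
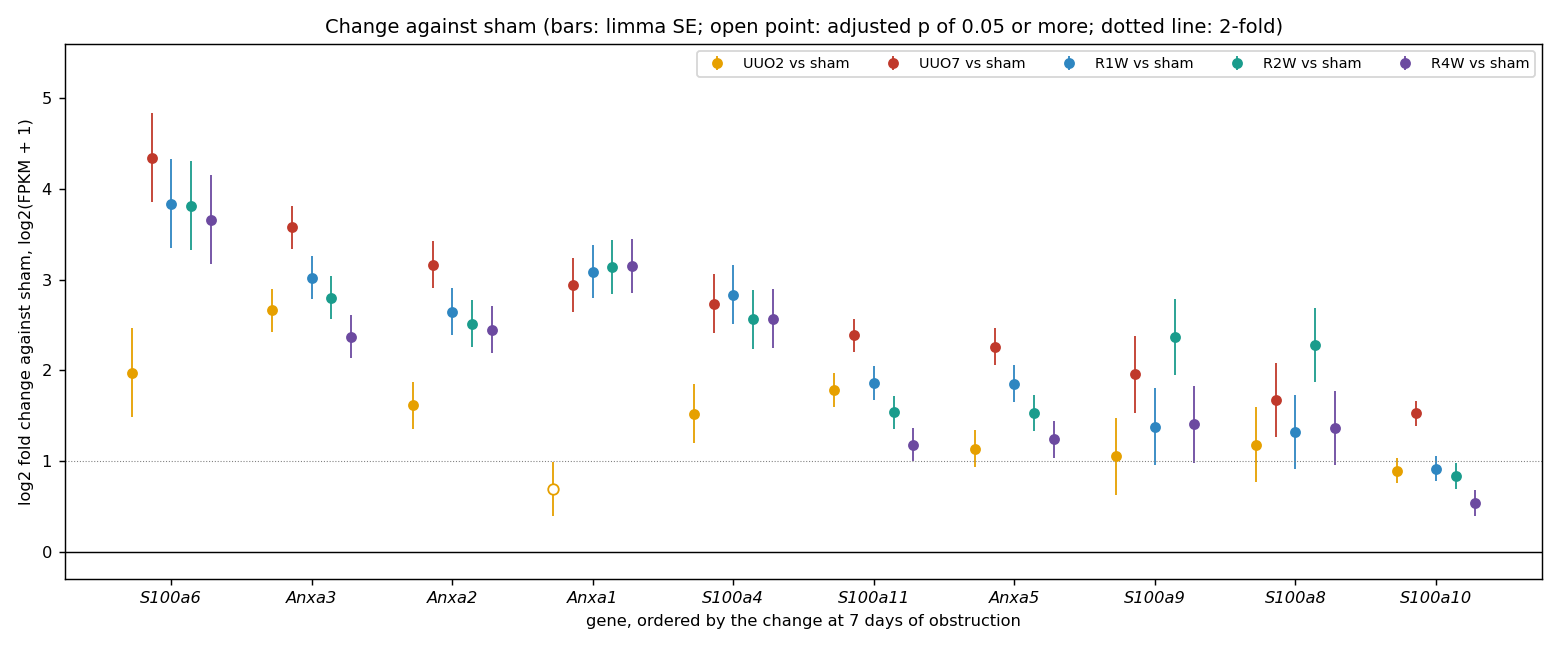
Log2 fold change against sham on log2(FPKM + 1) for each gene in the 5 other groups, with limma SE as bars and an open point where the adjusted p was 0.05 or more. S100a6 reaches 4.35 in UUO7, Anxa1 at 2 days (0.69) is the single open point, and S100a10 in R4W (0.54) is the lowest point of all.

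Most members were higher at 7 than at 2 days of obstruction. Between 2 and 7 days 8 of 10 passed the test as higher in UUO7, against 52.0% of genes, and 5 were at least 2-fold higher, against 13.9% (3 on rescaled values, against 9.18%). S100a8 (0.49) and S100a9 (0.91) did not pass (limma adjusted p = 0.299 and 0.0643). In the fit on those 2 groups alone both did (limma adjusted p = 0.0333 and 0.000439), and 10 of 10 members were called higher, against 50.5% of genes in that fit. On rescaled values 6 passed, against 30.0% of genes, and S100a10 (0.28) and S100a11 (0.25) were not called (limma adjusted p = 0.0694 and 0.187). S100a6 (2.37) and Anxa1 (2.25) had the largest changes between the 2 times (limma adjusted p = 0.000269 and 1.32e-06). As a share of the log2 change seen in UUO7, the UUO2 change was 74.6% for S100a11, 74.4% for Anxa3 and 70.7% for S100a8, but 45.4% for S100a6 and 23.5% for Anxa1. On the linear FPKM scale, from group means, these 5 shares were 58.6%, 50.7%, 56.7%, 13.8% and 9.26%.

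After reversal some members fell and others did not pass the test. From UUO7 to R4W 5 of 10 passed the test as lower, S100a10, S100a11, Anxa2, Anxa3 and Anxa5, against 30.8% of genes, and 3 of them were at least 2-fold lower, S100a11, Anxa3 and Anxa5, against 2.92%. On rescaled values 2 were, S100a11 (-1.10) and Anxa3 (-1.09), against 2.18%. No member was called higher in R4W than in UUO7, where 2604 of 14785 genes were (3717 on rescaled values). R4W against R1W gave 2 lower calls, S100a11 and Anxa5, against 14.1% of genes (1 on rescaled values, S100a11, against 8.60%). In the fit on R1W and R4W alone 0 members were called, with limma adjusted p = 0.0645 for S100a11 and 0.0600 for Anxa5, and 161 genes in place of 2830. In R4W the members kept 35.2% (S100a10), 49.4% (S100a11), 54.8% (Anxa5), 66.3% (Anxa3) and 77.3% (Anxa2) of the log2 change of UUO7. The share was 84.3% for S100a6, 94.0% for S100a4, 81.5% for S100a8, 71.8% for S100a9 and 107% for Anxa1. Without sham replicate 2 the R4W change of S100a6 was 4.43 and its share 86.6%. On rescaled values the share of S100a10 was 15.5%. On the linear FPKM scale, from group means, the shares were 24.3% (S100a10), 29.7% (S100a11), 35.5% (Anxa5), 38.5% (Anxa3) and 56.0% (Anxa2). They were 59.8% for S100a6, 89.8% for S100a4, 73.6% for S100a8, 64.3% for S100a9 and 119% for Anxa1. All of these shares rest on the same sham and UUO7 animals.

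**Figure D5:**
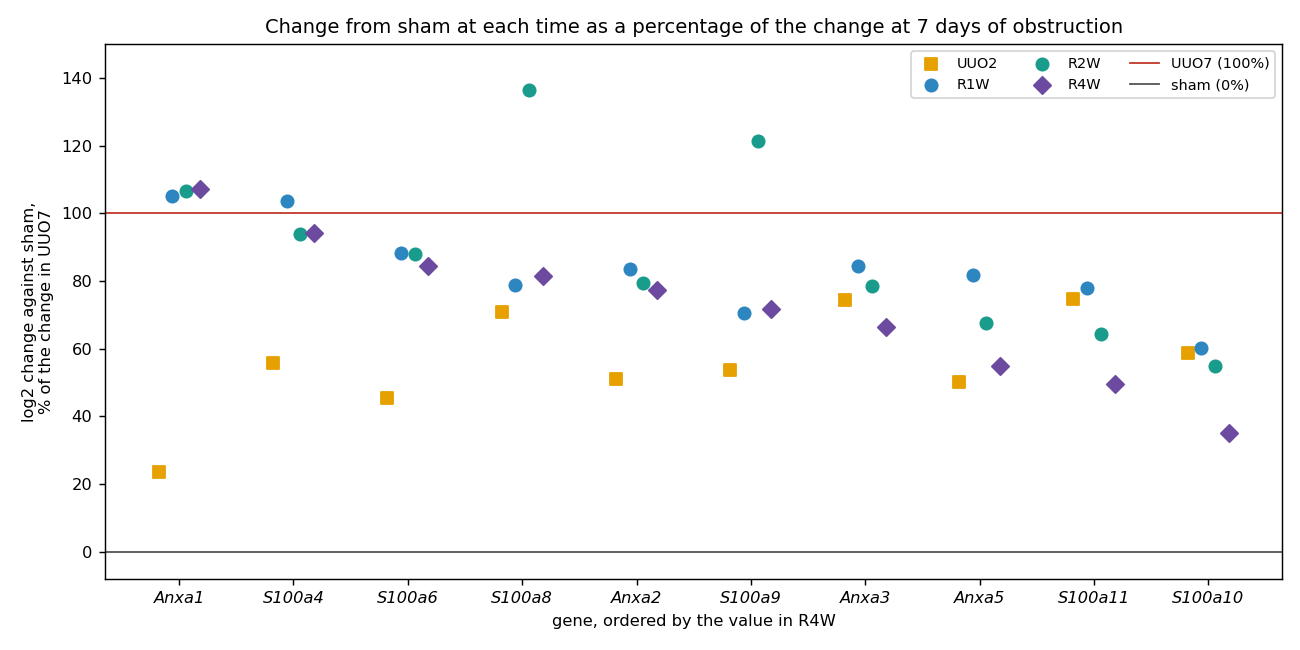
Log2 change against sham at UUO2, R1W, R2W and R4W as a percentage of the change at UUO7 for each gene, ordered by the R4W value. Anxa1 runs from 23.5% at UUO2 to 107% at R4W, while S100a10 ends at 35.2%, and S100a8 peaks at 136% in R2W.

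By group means per length, S100a11 ranked first in every group and S100a8 last. In UUO7 the order was S100a11 (1715 ± 189 FPKM), S100a6 (500.1 ± 51.7), S100a10 (465 ± 18.4), Anxa5 (382 ± 50.6), Anxa2 (321 ± 8.99), Anxa3 (102 ± 7.44), S100a4 (51.7 ± 6.99), Anxa1 (45.7 ± 5.20), S100a9 (5.64 ± 1.15) and S100a8 (3.20 ± 1.03), each as mean ± SD over 4 kidneys. The ranges overlapped between S100a6 and S100a10, between S100a10 and Anxa5, and between S100a4 and Anxa1. In sham S100a10 was second, and S100a6 (39.9 ± 52.8 FPKM) was next above Anxa2 (38.2 ± 21.1) by means, while in the 3 sham kidneys other than replicate 2 S100a6, at 12.1 to 14.6 FPKM, was below Anxa2.

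Other genes of both families included higher and lower ones. Of the 12 other S100 genes listed, 5 had a row. S100a13 (1.61), S100a14 (3.12), S100a16 (1.63) and S100a1 (0.34) passed the test as higher in UUO7 (log2 fold change against sham in parentheses), against 60.1% of all genes. S100a1 did not on rescaled values (-0.15), where 36.5% of all genes were higher. S100g, calbindin-D9k of the distal nephron, was at 1239.7 ± 109 FPKM in sham, 208 ± 52.2 in UUO2, 192 ± 26.3 in UUO7 and 889.6 ± 107 in R4W (SD, n = 4), and lower in UUO7 than in sham (-2.69, limma adjusted p = 2.53e-11). It was the one S100 gene with a row that was lower in UUO7, where 2632 of 14785 genes were. In R4W it was still below sham (-0.48, limma adjusted p = 0.0117). Of 8 other annexin genes 7 had a row, 5 higher, 1 lower and 1 not called in UUO7, where 60.1% of all genes were higher. Anxa6 had the largest change (2.02, limma adjusted p = 6.66e-10) and Anxa11 the smallest (0.08, limma adjusted p = 0.450). Anxa13, named after its value was seen, was the lower one (-0.84, limma adjusted p = 0.000110). On rescaled values Anxa11 was called lower (-0.39, limma adjusted p = 0.00107).

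Receptors and binding partners had 17 of 20 genes in the table, 15 higher and 1 lower in UUO7, against 60.1% of all genes higher, with a median log2 fold change of 1.14 against 0.42 for all genes. On rescaled values 11 were higher, against 36.5% of all genes, and 3 lower. Trpv6, a calcium channel that the S100A10 and annexin A2 complex carries to the membrane, had the largest change, from 0.46, 1.24, 0.77 and 0.62 FPKM in sham to 11.7, 10.2, 12.1 and 12.6 in UUO7 (2.85, limma adjusted p = 1.66e-09). Plaur, the urokinase receptor, named after its value was seen, was close behind (2.80), and without sham replicate 2 it was first (3.16 against 2.97 for Trpv6). Eno1, a plasminogen-binding enolase, changed least (-0.03, limma adjusted p = 0.755; -0.51 and 5.28e-05 on rescaled values). The lower gene, named after its value was seen, was Cd36 (-2.27, limma adjusted p = 2.01e-09). Membrane repair genes had 8 of 9 in the table, 7 higher and 0 lower in UUO7, against 60.1% of all genes higher (6 and 1 on rescaled values, against 36.5% higher). Myof, a ferlin, changed most (3.35, limma adjusted p = 8.96e-09) and Vps4b least (-0.16, limma adjusted p = 0.294).

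All 6 S100 members lie on chromosome 3, on the deposited table's coordinates, which match GRCm38 for all 10 members. S100a4 (90603771 to 90606045), S100a6 (90612882 to 90624181), S100a8 (90668978 to 90670035) and S100a9 (90692632 to 90695721, minus strand) lie together, and S100a11 (93520488 to 93526287) lies beside S100a10 (93555080 to 93564643). S100a1, S100a13, S100a14 and S100a16 precede S100a4 on the same chromosome. Along the chromosome the log2 fold changes in UUO7 of these S100 genes were 0.34 (S100a1), 1.61 (S100a13), 3.12 (S100a14), 1.63 (S100a16), 2.73 (S100a4), 4.35 (S100a6), 1.67 (S100a8) and 1.95 (S100a9), then 2.39 (S100a11) and 1.53 (S100a10). Anxa5 is elsewhere on chromosome 3, Anxa2 on chromosome 9, Anxa3 on chromosome 5 and Anxa1 on chromosome 19. Annotated genes overlap 5 members, S100a4, Anxa1, Anxa2, Anxa3 and Anxa5, and none of them has a row in the table. The strand setting of the counting is not given in the sources used here.

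The genes whose profile over the 24 libraries lay nearest to each member were found by the root mean square difference of gene-centred log2 values. S100a4 was nearest to Tgfbi (0.219), then Arl4c (0.252) and Emp3 (0.259). S100a6 was nearest to Krt19 (0.315), with Nupr1 (0.496) and Coro1a (0.507) much farther. S100a10 was nearest to Rpl10a-ps1 (0.120), Cfl1 (0.123) and Pfkp (0.129), and S100a11 to Tceal9 (0.160), Lig1 (0.175) and Ppp1r14b (0.185). Anxa1 was nearest to Selplg (0.238), Bcl2a1d (0.242) and Ltb (0.245), and Anxa2 to Chrnb1 (0.186), Sytl2 (0.221) and Arl4c (0.226). Anxa3 was nearest to Cxcl16 (0.259), Tubb5 (0.263) and Dpysl3 (0.270), and Anxa5 to Plscr3 (0.142), Mlkl (0.153) and Ckap4 (0.155). Outside the set S100a8 was nearest to Clec5a (0.470), Cd300lf (0.482) and Hpgds (0.493), and S100a9 to Hpgds (0.467), Msr1 (0.479) and Clec5a (0.482). All of these were farther than S100a8 and S100a9 were from each other (0.264). Krt19, a simple-epithelium keratin, was also high in sham replicate 2, at 0.79, 14.1, 0.98 and 1.28 FPKM across the sham kidneys.

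Markers of other cell types also differed between the groups. The 11 macrophage and monocyte markers summed to 56.8 to 97.7 FPKM in sham, 101 to 231 in UUO2, 1182 to 1401 in UUO7 and 800 to 1592 in R4W, all 11 higher in UUO7 and in R4W. The 6 T cell markers summed to 2.03 to 3.52 in sham, 10.97 to 17.4 in UUO7 and 18.3 to 36.8 in R4W. The 9 fibroblast markers summed to 51.3 to 118.6 in sham, 883 to 1076 in UUO7 and 366 to 567 in R4W. The 10 injured tubule markers summed to 634 to 1078 in sham, 18008 to 29161 in UUO2, 19567 to 21895 in UUO7 and 3153 to 4238 in R4W. The 7 urothelium markers summed to 2 to 100.4 in sham, 1.04 to 4.83 in UUO2, 35.8 to 68.6 in UUO7 and 76.9 to 275 in R4W. Of these 7, 3 were higher than sham in UUO7 (1 on rescaled values), 6 in R1W (3 on rescaled values) and 7 in R4W (also 7), and without sham replicate 2 all 7 were higher in each of these groups. The 6 endothelium markers summed to 79.7 to 152.9 in sham, 243 to 262 in UUO7 and 207 to 271 in R4W, with 3 lower in UUO2 (6 on rescaled values), 5 higher in UUO7 and 6 higher in R4W (5 on rescaled values). The 4 podocyte markers summed to 35.3 to 39.8 in sham, 48.2 to 60.9 in UUO7 and 90.9 to 130.1 in R4W, with 3 lower in UUO2, 3 higher in UUO7 (1 on rescaled values) and 4 higher in R4W. The 8 proximal tubule markers went the other way, 6 lower in UUO2, 8 in UUO7 (806 to 1014 FPKM) and 8 in R4W (1877 to 2651 FPKM). Of 6 distal nephron and collecting duct markers 5 were lower in UUO7 (6 on rescaled values) and 0 in R4W. Of 5 adipose markers 1 was higher than sham in UUO7 and 1 in R4W (0 in each on rescaled values). Higher in R4W than in UUO7 were 2 of the 5. The part of any of these in the members' levels was not tested.

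The authors' deposited table of comparisons gave 10 of 10 members with an adjusted p under 0.05 and higher than sham in UUO7 (35.8% of genes with an adjusted p there), R1W (31.9%) and R2W (30.7%). In the authors' deposited table it was 9 members in R4W, against 30.9% of genes, and 8 in UUO2, against 26.7%. In the authors' deposited table the exceptions were S100a10 in R4W (log2 0.14, adjusted p = 0.173) and, in UUO2, Anxa1 (0.63, adjusted p = 0.114) and S100a6 (1.59, adjusted p = 0.115). Against UUO7 the authors' deposited table had 5 members lower in R1W, against 11.2% of genes, and 6 lower in R4W, against 27.3%. The 1 member higher in R4W in the authors' deposited table, where 26.0% of genes were higher, was Anxa1 (0.41, adjusted p = 0.0021).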

How the data were processed

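Bulk kidney RNA from 24 mice was sequenced as polyA libraries in paired-end mode, per the labels' protocols. The submitters' processing notes name FastQC, RSEM, Bowtie2, DESeq2 and the mm10 genome, without versions. The authors deposited 1 table holding an expression value for 14785 genes in each of the 24 mice. No unit is given with it, and the values the authors deposited were read as FPKM, made from aligned read pairs with the tools named above, with 1 as the lowest mean of any gene. The authors also deposited log2 fold changes and adjusted p-values for 15 comparisons.

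Values were analysed as log2(FPKM + 1) with limma 3.58.1 (lmFit and eBayes with trend) in R 4.3.3, with all 24 libraries and 6 groups in 1 model. Benjamini-Hochberg adjustment ran over all 14785 genes for each of 9 contrasts. A gene was called at an adjusted p under 0.05, and the second rule also asked for a 2-fold change. Since these values are not counts, no count model was used, and a fold change on this scale understates the change of low genes. On data simulated for UUO7 against sham with 14785 genes, 92 of 100 genes changed 2-fold and 100 of 100 changed 4-fold were called, with 12 unchanged genes. The changed genes were drawn above a floor of expression that S100a8 and S100a9 lie below, so these figures do not cover them. Noise was normal, no shift between libraries was simulated, and far fewer genes changed than the 11512 called in the real comparison. Depth was inferred from the steps between low values in genes with a single transcript, where at least 71.0% of values lay within 0.2 of a whole fragment. Ratios and marker sums used Python 3.11.15, numpy 2.4.6 and pandas 2.3.3.

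The 10 members were named. Of other lists, the genes with the largest and smallest change in UUO7 against sham were named, and lists of 5 or fewer in full. For each member the 3 genes outside the set with the most like profile were named, leaving out those with only a clone or model name. The members and lists were chosen with earlier results of these data known. Alternatives were rescaling by median ratio, pseudocounts of 0.1 and 10, a mean of at least 5 FPKM, a fit on the 2 groups compared, a replicate block, no UUO2 group, R4W replicate 2 placed in R2W, no trend, and each replicate left out. For the ratios a pseudocount of 1 and the omission of each replicate were added after seeing the data.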

Additional observations from a re-analysis of the deposited data

Results flagged for a closer look

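A library was set apart where its gap to the nearest other library of its group exceeded Dixon's 95% critical value for 4 samples. Of 60 checks, 10 genes in 6 groups, 5 met this, where chance gives about 3 (1 in 20). In sham replicate 2, S100a6 was at 119 FPKM where the others were at 12.1 to 14.6, S100a4 at 10.96 where the others were at 5.43 to 6.24, and Anxa1 at 10.2 where the others were at 3.33 to 4.35. The same kidney had the urothelium and adipose marker sums that stood apart in sham. In sham replicate 3, S100a8 was at 0.34 FPKM where the others were at 0.27 to 0.28, a gap of 1 implied fragment. In R1W replicate 3, Anxa5 was at 384 FPKM where the others were at 246 to 269.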

How the results depend on the processing

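Of 1442 member fold changes recomputed under the alternatives, 1378 kept their direction and side of the threshold, 33 were no longer called, 17 became called and 14 changed sign. All 158 in UUO7 against sham and all 168 in R2W against sham were kept. With a pseudocount of 10, genes called at 2-fold went from 1294 to 458 in UUO2, 4076 to 1469 in UUO7, 3019 to 879 in R1W, 2454 to 616 in R2W and 2182 to 443 in R4W against sham. They went from 2391 to 603 in UUO7 against UUO2, 196 to 69 in R1W and 892 to 309 in R4W against UUO7, and 114 to 26 in R4W against R1W (178 with a pseudocount of 0.1). With a mean of at least 5 FPKM, which tests fewer genes (10333, without S100a8 and S100a9), they were 1578 in R2W and 1372 in R4W against sham and 1508 in UUO7 against UUO2. R4W against R1W was the least stable: the fit on these groups alone called 161 genes, 39 at 2-fold, and 0 members, where the model of all groups called 2830 genes and 2 members. Members called there were 1 on rescaled values and 4 without the UUO2 group. In R1W against UUO7 they were 3 in the fit on those groups alone and 2 without the UUO2 group, against 1. The cause was not tested.

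Leaving out each replicate gave 728 to 3491 genes called, 61 to 181 at 2-fold and 0 to 3 members in R4W against R1W, and 1116 to 2535 genes and 1 to 2 members in R1W against UUO7. Uncalled differences changed sign in R4W against R1W (S100a8 from -0.14 to 0.21, S100a9 from -0.26 to 0.23, Anxa1 from -0.0466 to 0.21) and in R1W against UUO7 (S100a4 from -0.0549 to 0.22, Anxa1 from -0.0025 to 0.26). With R4W replicate 2 placed in R2W, R4W against R1W was -0.0577 for S100a9 and -0.0087 for Anxa1. The S100a8 to S100a9 log2 ratio turned with a pseudocount of 1 to -0.28 in UUO7 and -0.0419 in R4W against sham. Leaving out replicates, it ranged from -0.0195 (without R4W replicate 1) to 0.43 in R4W against UUO7. Replicate numbers are shared between groups, but in no comparison were all 4 same-numbered correlations of deviations over 0.1. With the replicate block 11422 genes and 10 members were called in UUO7 against sham and 2578 genes and 2 members in R4W against R1W, and no member call changed. Low depth limits S100a8 and S100a9, at 3 to 12 implied fragments in sham.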
